A study of Mus musculus with 5 samples.

Results

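The 7 sirtuin genes of the mouse (*Sirt1* to *Sirt7*) were examined for CpG methylation in leukemic blasts with and without *Tet2*. They were chosen by gene symbol in the GENCODE annotation of the GRCm38 assembly, 7 of 21755 protein-coding genes. Earlier results of these data were known at that time. Methylation had been read by whole-genome bisulfite sequencing, in which unmethylated cytosine is converted and a methylated cytosine is still read as C. All libraries came from C57BL/6 mice whose blasts were Cebpa-/p30, with a deleted *Cebpa* allele and an allele that makes only the short p30 isoform of the myeloid transcription factor CEBPA. *Tet2* was intact in 2 libraries (*Tet2*+/+, numbers 23 and 24) and deleted in 3 libraries (*Tet2*-/-, numbers 5, 7 and 8). In this model bone marrow of the compound mice was transplanted into irradiated congenic recipients, and the floxed alleles were removed after transplantation by Cre under the interferon-inducible *Mx1* promoter. The sequenced cells were live donor-derived bone marrow cells without T cell, B cell and erythroid surface markers, sorted by flow cytometry. Ages of the sequenced animals are not given in the labels.

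Sirtuins are enzymes that use NAD+ to remove acetyl and other acyl groups from lysines, which ties protein acylation to the metabolic state of the cell. SIRT1, SIRT6 and SIRT7 act mainly in the nucleus, SIRT2 mainly in the cytoplasm, and SIRT3, SIRT4 and SIRT5 in mitochondria. TET2 is a dioxygenase that oxidises 5-methylcytosine and so starts its removal. Starts of widely used genes usually lie in CpG-rich DNA of low methylation, while gene bodies and the flanks of such DNA carry more. For *Sirt5* and other candidate genes the study asked whether lower expression follows directly from the loss of TET2. It looked at chromatin accessibility and DNA methylation for that reason. A gain of promoter methylation was reported for another candidate and not for *Sirt5*.

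A CpG was counted as a dyad, with the calls of both strands added, and the methylation level of a region was its methylated calls over all calls. A promoter was the 1000 bp on each side of the start of the GENCODE gene. *Sirt1* lies on chromosome 10 (63319005 to 63381704, minus strand) and is the longest member at 62700 bp. *Sirt6* lies on the same chromosome (81621785 to 81627797, minus strand) and is the shortest at 6013 bp. *Sirt7* lies on chromosome 11 (120618372 to 120625240, minus strand). *Sirt2* (28766735 to 28788661, plus strand) and *Sirt3* (140863666 to 140882309, minus strand) both lie on chromosome 7. *Sirt4* lies on chromosome 5 (115478010 to 115484725, minus strand) and *Sirt5* on chromosome 13 (43365496 to 43395203, plus strand).

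The promoters held 45 (*Sirt1*) to 93 (*Sirt7*) dyads, against a median of 62 over all 21755 promoters. In 5 of the 7 promoters the annotated start of another gene also lies. The start of *Dnajc12* lies 739 bp from that of *Sirt1*, *Nfkbib* 777 bp from *Sirt2*, *Psmd13* 341 bp from *Sirt3*, *Ankrd24* 743 bp from *Sirt6* and *Mir6936* 364 bp from *Sirt7*, whose promoter also overlaps *Mafg*. At *Sirt1*, *Sirt2*, *Sirt3* and *Sirt6* the promoter methylation therefore belongs to both genes, while *Mir6936* lies inside *Sirt7*. Only *Sirt4* and *Sirt5* have a promoter that overlaps no other annotated gene. For *Sirt1* the annotations differ. Its GENCODE gene begins 42669 bp upstream of the RefSeq start, and only 1 of its 4 coding transcripts starts in that promoter, against 3 at the RefSeq start. The RefSeq promoter of *Sirt1* is a CpG island of 206 dyads, more than in 99.3% of all promoters, with an observed to expected CpG ratio of 1.00. Both starts were therefore measured for every member.

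Examples of windows around the starts are printed from the GRCm38 reference, 5′ to 3′ on the strand of the gene, with each CpG in capitals. They were picked by their methylation levels and do not include every window with a large difference between the groups. Not printed, for instance, are the windows that begin 750 bases after the start of *Sirt2* (30.6 points) and *Sirt6* (25.1 points). The capital C that ends the *Sirt5* window of bases -250 to -1 belongs to a CpG whose G is the first base of the gene. *Sirt4* and *Sirt5* are shown with the window next to the start and the partly methylated window beside it. The window next to the start had low methylation, except at *Sirt4* in *Tet2*-/- libraries 5 and 8 (10.4% and 20.3%). *Sirt6* is shown with a window on the methylated side, and *Sirt1* with the edge of its island. None overlaps an annotated UTR. The *Sirt6* window holds 58 bases of exon and otherwise intron. The *Sirt4* and *Sirt5* windows lie upstream of their gene, and the *Sirt1* window lies in an intron of the longer GENCODE gene. Positions are counted from the start of the gene.
Sirt4, bases -500 to -251 (chr5:115484976-115485225, minus strand): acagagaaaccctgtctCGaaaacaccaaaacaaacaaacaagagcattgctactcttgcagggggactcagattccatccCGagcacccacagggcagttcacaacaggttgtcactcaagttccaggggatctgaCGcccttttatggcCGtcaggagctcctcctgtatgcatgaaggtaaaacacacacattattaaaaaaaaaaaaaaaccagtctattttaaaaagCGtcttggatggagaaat
Sirt4, bases -250 to -1 (chr5:115484726-115484975, minus strand): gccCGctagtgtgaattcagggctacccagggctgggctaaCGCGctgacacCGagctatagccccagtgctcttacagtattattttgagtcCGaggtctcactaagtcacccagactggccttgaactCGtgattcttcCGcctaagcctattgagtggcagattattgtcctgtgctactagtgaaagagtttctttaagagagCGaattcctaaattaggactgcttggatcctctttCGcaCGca
Sirt5, bases -500 to -251 (chr13:43364996-43365245, plus strand): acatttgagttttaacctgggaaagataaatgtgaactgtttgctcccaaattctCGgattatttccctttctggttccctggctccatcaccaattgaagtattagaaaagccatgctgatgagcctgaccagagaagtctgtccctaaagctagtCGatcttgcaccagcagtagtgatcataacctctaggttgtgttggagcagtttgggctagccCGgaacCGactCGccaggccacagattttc
Sirt5, bases -250 to -1 (chr13:43365246-43365495, plus strand): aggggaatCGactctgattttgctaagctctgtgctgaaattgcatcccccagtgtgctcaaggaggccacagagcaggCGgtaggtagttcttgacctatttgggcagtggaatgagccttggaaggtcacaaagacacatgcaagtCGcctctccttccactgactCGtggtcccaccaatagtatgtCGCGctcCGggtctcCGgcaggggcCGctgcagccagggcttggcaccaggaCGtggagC
Sirt6, inside the gene (chr10:81626298-81626547, minus strand): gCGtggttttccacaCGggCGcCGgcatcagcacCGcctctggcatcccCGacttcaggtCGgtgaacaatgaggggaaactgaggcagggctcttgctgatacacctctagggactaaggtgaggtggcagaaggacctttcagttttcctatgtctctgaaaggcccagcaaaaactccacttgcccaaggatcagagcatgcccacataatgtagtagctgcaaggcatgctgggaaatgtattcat
Sirt1, bases -500 to -251 from the RefSeq start (chr10:63339286-63339535, minus strand): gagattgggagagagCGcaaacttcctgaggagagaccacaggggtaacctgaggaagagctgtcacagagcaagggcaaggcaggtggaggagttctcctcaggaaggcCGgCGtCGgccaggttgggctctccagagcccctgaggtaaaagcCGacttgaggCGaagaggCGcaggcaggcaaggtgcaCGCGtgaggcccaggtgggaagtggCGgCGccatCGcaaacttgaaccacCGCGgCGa

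The libraries held 63111735 to 110752967 calls on the autosomes and X chromosome, 2.96 to 5.19 per dyad, so that levels of single CpGs are given only as pooled calls of a group, with no test. A run of 36 dyads in *Tet2* had 128 and 151 calls in the *Tet2*+/+ libraries and 0 in each *Tet2*-/- library, as the labels require. Genome-wide methylation ranged from 62.3% (library 24) to 67.3% (library 23) with *Tet2* and from 68.4% to 74.8% without it. The median promoter level of 7 myeloid markers was 5.21% to 8.75% in *Tet2*+/+ and 10.4% to 18.2% in *Tet2*-/-. It was 70.8% to 72.2% against 75% to 85.5% for 5 T cell markers, 60.8% to 70.4% against 70.9% to 78.6% for 5 B cell markers, and 32.9% to 34.9% against 56.5% to 58.8% for 4 tested erythroid markers. Each marker set was thus higher in *Tet2*-/- without overlap, and the part of this in the sirtuin values was not tested. A different mixture of cells and a change within the cells cannot be told apart in these bulk libraries. Within 1 Mb of each sirtuin start, calls per dyad were 0.946 to 1.31 times the library mean in every library.

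At the promoters none of the 7 sirtuins passed edgeR's quasi-likelihood test, while 1.07% of all 19455 promoters passed at an adjusted p of 0.05. An unadjusted p under 0.05 was reached by 1 member, *Sirt4*, and by 18.1% of all promoters. The group mean was higher in *Tet2*-/- for 6 of 7 members, with a median difference of 0.765 percentage points, against 2.22 points over all promoters. As that last median is positive, the mean was higher at most of all promoters too. All *Tet2*-/- libraries lay above both *Tet2*+/+ libraries at 2 members, *Sirt3* and *Sirt4*, and the same held for 32.8% of all promoters. The reverse held for no member and for 4.05% of all promoters. The mean over the 7 promoters was 12.9% and 9.42% in *Tet2*+/+ against 13.4%, 13.7% and 13.5% in *Tet2*-/-. Per library and member, 201 to 804 calls gave Wilson 95% intervals of 1.26 to 6.01 points, as the mean of the upper and the lower reach. At these levels the upper reach was the longer.

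Among the nuclear sirtuins, *Sirt1*, whose product deacetylates p53, FOXO proteins and histones, had a promoter level of 8.26% in *Tet2*+/+ library 23 and 4.31% in library 24. It had 4.53%, 5.21% and 6.39% in *Tet2*-/- libraries 5, 7 and 8, inside the range of the controls. Group means of 6.28% ± 2.80 with *Tet2* (SD, n = 2) and 5.38% ± 0.941 without it (SD, n = 3) gave an edgeR adjusted p of 0.84. *Sirt6*, whose product deacetylates histone H3 at telomeres and sites of DNA damage, had the highest promoter mean of the family. Its levels were 29.1% and 27.4% in *Tet2*+/+ and 31.9%, 30.1% and 25% in *Tet2*-/-, and the groups overlapped (edgeR adjusted p = 0.954). *Sirt7*, whose product acts in the nucleolus on ribosomal gene transcription, had 2.45% and 6.74% in *Tet2*+/+ and 5.92%, 5.85% and 4.31% in *Tet2*-/-. All 3 *Tet2*-/- values lay between the controls (edgeR adjusted p = 0.771).

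*Sirt2*, whose product deacetylates tubulin in the cytoplasm, had 11.6% and 5.22% in *Tet2*+/+ and 9.81%, 11% and 14.9% in *Tet2*-/-. The difference of 3.5 points was smaller than the gap between the 2 controls (edgeR adjusted p = 0.56). Without library 24 it was 0.32 points and without library 23 it was 6.69 points, so that its size depended on which control was kept.

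Of the mitochondrial members, *Sirt3*, the main mitochondrial deacetylase, had the lowest promoter level, at 2.19% and 2.08% in *Tet2*+/+ and 2.47%, 3.07% and 2.57% in *Tet2*-/-. The groups did not overlap, but the difference of 0.567 points was within the counting error of 311 to 619 calls (edgeR adjusted p = 0.737). *Sirt4*, whose product restrains glutamate dehydrogenase, had 8.21% and 7.58% in *Tet2*+/+ and 12.6%, 12.9% and 15.3% in *Tet2*-/-. The *Tet2*-/- libraries all lay above the controls, by 5.70 points on average. Group means of 7.90% ± 0.444 with *Tet2* (SD, n = 2) and 13.6% ± 1.45 without it (SD, n = 3) gave an edgeR p of 0.0484 and an adjusted p of 0.272. The exact permutation test gave a two-sided p of 0.1, the smallest that 2 against 3 libraries allow.

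*Sirt5*, whose product removes succinyl, malonyl and glutaryl groups from metabolic enzymes, had the largest promoter difference of the family, 6.05 points. It read 28.5% in library 23 but 12.6% in library 24, both *Tet2*+/+, and 26.4%, 27.6% and 25.9% in *Tet2*-/- libraries 5, 7 and 8. All 3 *Tet2*-/- libraries lay between the controls, close to library 23, and library 24 alone was low. Group means came to 20.6% ± 11.2 with *Tet2* (SD, n = 2) against 26.6% ± 0.896 without it (SD, n = 3), with an edgeR adjusted p of 0.582 and an exact permutation p of 0.5. Without library 24 the difference was -1.90 points, and without library 23 it was 13.99 points, so its direction depended on 1 control library.

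**Figure D1:**
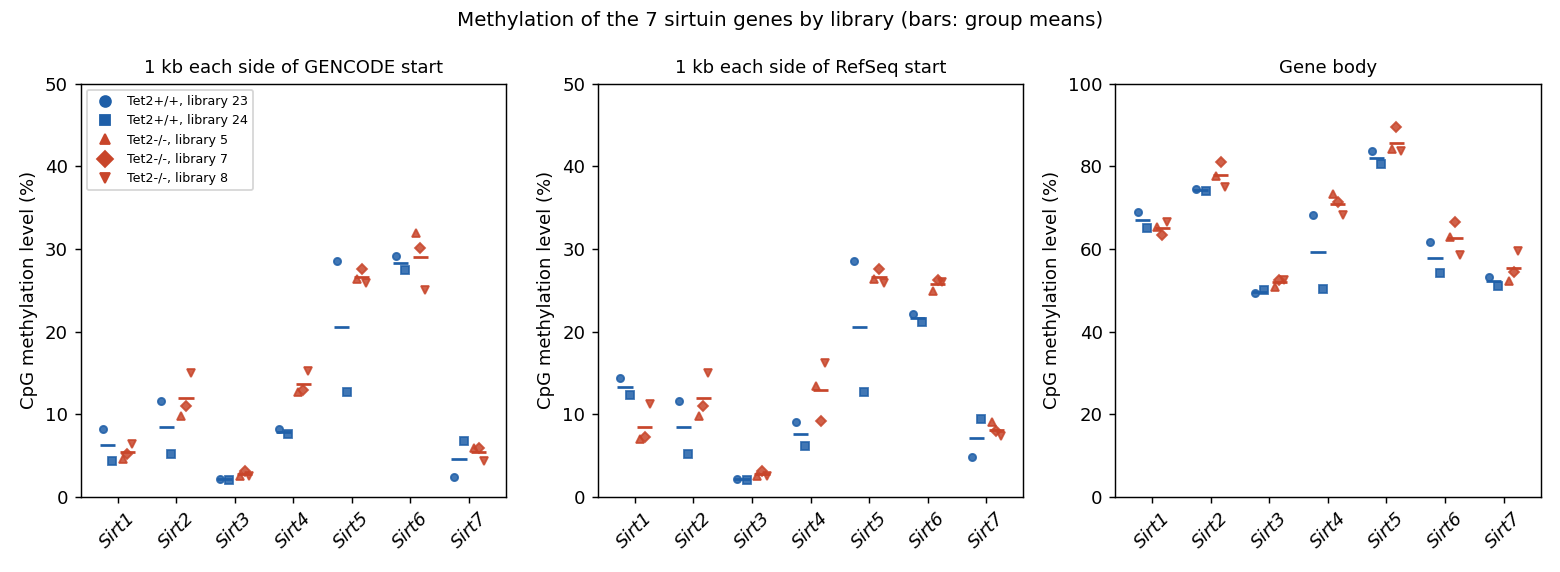
CpG methylation level (%) of the 7 sirtuin genes in each library, over 1000 bp on each side of the GENCODE start, the same around the RefSeq start, and the gene body; points are libraries and bars are group means. The promoter levels range from about 2.08% at *Sirt3* to 31.9% at *Sirt6*, and the *Tet2*+/+ libraries 23 and 24 lie apart at *Sirt5* (28.5% and 12.6%).

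By the mean over the 5 libraries the order of the promoters was *Sirt3* (2.48%), *Sirt7* (5.05%), *Sirt1* (5.74%), *Sirt2* (10.5%), *Sirt4* (11.3%), *Sirt5* (24.2%) and *Sirt6* (28.7%). The ranges of every pair of neighbours in this order overlapped, so that no step of the order exceeded the spread over libraries. Around the RefSeq starts also none of the 7 members passed, with 0.846% of 15017 promoters called. The groups did not overlap at 4 members there, with *Tet2*-/- above at *Sirt3*, *Sirt4* and *Sirt6* (32.1% of all RefSeq promoters) and below at *Sirt1* (4.14%). *Sirt6* had 22.1% and 21.2% in *Tet2*+/+ against 24.9%, 26.2% and 26% in *Tet2*-/- (edgeR adjusted p = 0.66).

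The promoter averages hide a steep profile, so windows of 250 bp within 2 kb of each GENCODE start were measured. With at least 20 calls in every library 40 of the 112 sirtuin windows could be tested, and with at least 10 calls 70 could. None passed at either minimum, and the lowest adjusted p were 0.33 and 0.306, while 0.97% of 84866 and 0.893% of 146525 windows over all genes were called. Of the 70 windows, 30 were under 10% in all 5 libraries and 23 were over 60% in all 5. The other tested windows lay between these levels or crossed them.

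With at least 20 calls, all *Tet2*-/- libraries were above both controls in 10 of 40 sirtuin windows (20.5% of all windows) and below in 4 (4.99%), and 2 reached an unadjusted edgeR p under 0.05 (9.45%). With at least 10 calls 3 of 70 did (10.6%).

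Next to the starts most members had little methylation, with the exception of *Sirt4* before its start, which reached 20.3% in *Tet2*-/- library 8. Within 250 bp the median over 11 tested windows was 1.25% in *Tet2*+/+ and 1.23% in *Tet2*-/-, close to the medians over all genes (1.11% and 1.14%). In the 250 bp after the start, *Sirt6* had 0% to 2.20% and *Sirt3* 0% to 2.25% in the 5 libraries, and the 15 CpGs of the *Sirt6* window and 13 of *Sirt3* were covered by at least 62 and 80 calls. In the first 250 bp after the RefSeq start of *Sirt1*, 40 dyads gave 0% to 0.667%. In the printed window before it, the first CpG (position 16) had 5 of 11 methylated calls in the pooled *Tet2*+/+ libraries and 9 of 14 in *Tet2*-/-, and the other 14 CpGs had 0% to 8.33%, so that the edge of the island fell inside this window. A count of 0 allows a level of up to 3 counts of the total, and intervals and such limits cover counting error only. On the mitochondrial chromosome 0.807% to 0.989% of calls read as methylated in the 5 libraries, so that core levels near 1% were close to that rate.

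Farther out the levels were mixed. The median over tested sirtuin windows was still 0.642% in *Tet2*+/+ and 1.74% in *Tet2*-/- between 250 and 1000 bp from the start (18 windows), and 89.3% and 92.6% between 1000 and 2000 bp (11 windows). Over all genes the medians were 1.79% and 2.23%, and 27.3% and 44.1%, so that the tested outer sirtuin windows had the higher medians. None of these outer windows came from *Sirt2* or *Sirt3*, and that of *Sirt1* had 0% to 3.57%. The medians therefore do not describe the whole family. With at least 10 calls, 15 of the 70 windows had a *Tet2*-/- mean more than 10 points above that of *Tet2*+/+ and 0 had one more than 10 points below, beside 27.3% and 2.74% of all windows. In 18 windows all *Tet2*-/- libraries were above both controls, and in 4 all were below. The shares over all genes were 23.2% and 4.09%, so that both counts of higher windows were near or under the background. Of the 15 windows *Sirt5* held 5, *Sirt6* 4, *Sirt2* 3, *Sirt4* 2 and *Sirt7* 1, and *Sirt1* and *Sirt3* held none.

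At *Sirt5* the window of bases -500 to -251 printed above had 43.5% and 23.1% in *Tet2*+/+ and 45.9%, 56.7% and 70% in *Tet2*-/-. All *Tet2*-/- libraries were higher than the controls, by 24.3 points on average (edgeR adjusted p = 0.69 at 10 calls). But the window held only 5 dyads and as few as 13 calls in a library. The next window, bases -250 to -1, had 0% and 3.45% in *Tet2*+/+ and 3.45%, 1.10% and 8% in *Tet2*-/-. Farther upstream, at bases -750 to -501, *Tet2*+/+ library 23 had 86.2% and library 24 had 46.7%, so that library 24 was low in the upstream flank and not in the core. Downstream, at bases 1000 to 1249, library 24 was the higher control, with 65.5% against 50% in library 23. In the printed flank window, 3 of 5 CpG positions (56, 221 and 232, counted from its 5′ end) had 77.8%, 60% and 37.5% in the pooled *Tet2*+/+ calls. They had 84.2%, 92.9% and 73.3% in the pooled *Tet2*-/- calls, on 5 to 19 calls each. Such CpG levels come from the same calls as the window level and add no further support to its difference.

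At *Sirt4* bases -500 to -251 had 17.6% and 26.1% in *Tet2*+/+ and 38.9%, 55.3% and 50% in *Tet2*-/-. The groups did not overlap and differed by 26.2 points (edgeR adjusted p = 0.549 at 10 calls). Bases -250 to -1 had 1.32% and 5.56% in *Tet2*+/+ and 10.4%, 1.03% and 20.3% in *Tet2*-/-. There the groups overlapped through library 7, and libraries 5 and 8 were the higher ones. In the flank window pooled levels were higher in *Tet2*-/- at each of the 5 CpGs, for instance 1 of 10 calls against 12 of 24 at position 138. Those are the calls that make up the difference of the window, so that the CpGs add no further support to it.

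In the flank of *Sirt6* inside the gene the windows were mixed. The window that begins 750 bases after the start had 39.4% and 42.9% in *Tet2*+/+ and 68.3%, 70.3% and 60% in *Tet2*-/-, a difference of 25.1 points with no overlap (edgeR adjusted p = 0.663 at 20 calls). The printed window, farther into the gene, had 81.0% and 79.2% against 96.8%, 100% and 83.3% (edgeR adjusted p = 0.601 at 20 calls). Farther in, the groups overlapped at bases 1500 to 1749 and again at bases 1750 to 1999, where the *Tet2*-/- mean was the lower one (90.3% against 92.6%). *Sirt2* had its largest difference in the window that begins 750 bases after its start. It had 64% and 31.2% in *Tet2*+/+ and 65%, 89.7% and 80% in *Tet2*-/- (30.6 points, edgeR adjusted p = 0.489 at 10 calls). The *Tet2*-/- values were all higher, yet library 5 exceeded control library 23 by only 1 point.

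*Sirt3* was under 10% in all libraries in 7 of 9 windows, and *Sirt7* in the 4 tested windows in the first 1000 bases. The next *Sirt7* window already had 77.8% and 81.0% in *Tet2*+/+ and 78.1%, 92% and 86.7% in *Tet2*-/-. Among windows around GENCODE starts the lowest adjusted p of the family was in the first 250 bp of *Sirt1*, with 5.48% and 3.12% in *Tet2*+/+ and 0% in all 3 *Tet2*-/- libraries (edgeR adjusted p = 0.33 at 20 calls). It was lower in *Tet2*-/-, against the direction of most windows, and it holds 10 dyads. Among windows around RefSeq starts, with at least 10 calls, the lowest adjusted p was in the *Sirt4* window that begins 750 bases after the start, with 80% and 50% in *Tet2*+/+ and 95.7%, 92.9% and 100% in *Tet2*-/- (edgeR adjusted p = 0.279). That window was higher in *Tet2*-/-, on as few as 10 calls in a library.

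**Figure D2:**
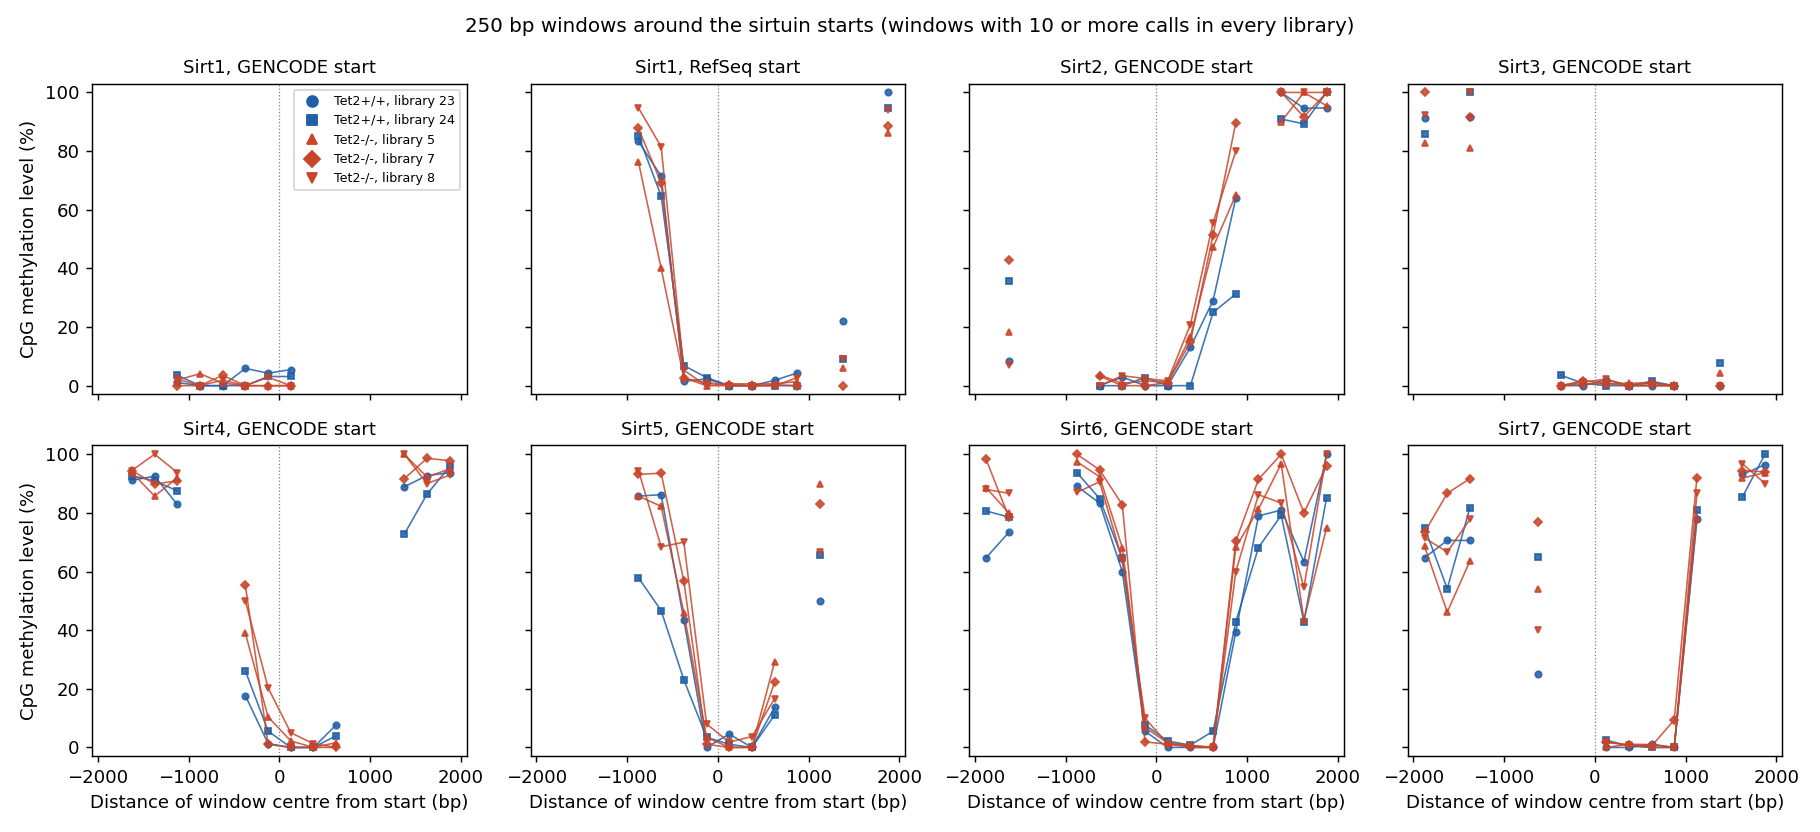
CpG methylation level (%) of each library in 250 bp windows against the distance of the window centre from the start (bp), for windows with at least 10 calls in every library; lines join neighbouring windows. Every member has a core near 0% in both groups, and the *Tet2*-/- libraries lie above both controls in 18 of the 70 windows tested around GENCODE starts, for instance at 60% to 70.3% against 39.4% and 42.9% in the *Sirt6* window that begins 750 bases after the start.

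By distance, all *Tet2*-/- libraries were above both controls in 1 of 11 sirtuin windows within 250 bp of the start, 5 of 18 between 250 and 1000 bp, and 4 of 11 between 1000 and 2000 bp (at least 20 calls). The shares were 9.09%, 27.8% and 36.4%, beside 14.2%, 19.5% and 30.2% over all genes. All *Tet2*-/- libraries were below in 2, 1 and 1 of these windows, or 18.2%, 5.56% and 9.09%, beside 6.48%, 4.88% and 3.44% over all genes. These counts are too small to rank the distances.

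Gene bodies carried far more methylation, from 51.0% (*Sirt3*) to 84.3% (*Sirt5*) as the mean over the libraries. None of the 7 passed, while 15.5% of 20715 gene bodies did. The median difference was 3.52 points, against 4.95 over all bodies. The *Tet2*-/- mean was higher in 6 of 7, as it was in most of all bodies, whose median difference is positive. The groups did not overlap at 2, *Sirt2* and *Sirt3*, with *Tet2*-/- above, which held for 46% of all bodies. The reverse held for none (1.46% of all bodies), and *Sirt4* alone had an unadjusted edgeR p under 0.05 (29.2% of all bodies). *Sirt2* had 74.6% and 74.1% in *Tet2*+/+ and 77.5%, 81.0% and 75% in *Tet2*-/- (edgeR adjusted p = 0.414). *Sirt3* had 49.3% and 50% against 50.7%, 52.5% and 52.4% (edgeR adjusted p = 0.737). Both differences were below the median over all bodies.

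*Sirt4* came nearest to the threshold. Its body had 68.2% in library 23 and 50.3% in library 24, the controls, and 73.2%, 71.5% and 68.1% in *Tet2*-/- libraries 5, 7 and 8. Library 24 was far below the other 4, and *Tet2*-/- library 8 lay just under control library 23. From 59.3% ± 12.6 with *Tet2* (SD, n = 2) to 70.9% ± 2.60 without it (SD, n = 3), the means lay 11.7 points apart, with an edgeR adjusted p of 0.0617 and an exact permutation p of 0.2. Without library 24 it was 2.73 points with an edgeR adjusted p of 0.905, and without library 23 it was 20.6 points with an edgeR adjusted p of 0.0138 (12.2% of all bodies passed). Without library 8 it was 13.1 points (edgeR adjusted p = 0.0499, with 16.1% of all bodies passing). Without the first 1000 bp of the gene the difference was 12.5 points and passed the test (edgeR adjusted p = 0.00757), as did 10.3% of all bodies so measured. Beyond 1 kb from the RefSeq start the body had 90.0% in library 23 and 72.2% in library 24 against 92.1%, 96.9% and 91.7% in *Tet2*-/-, so that library 24 again stood apart.

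Library 24 was below library 23 in 6 of the 7 tested tiles inside *Sirt4*, and most so in 2 of them. In the 1 kb tile from 115478001 it had 52% against 86.0% in library 23 and 84.6%, 94.1% and 82.2% in *Tet2*-/-. In the 1 kb tile from 115480001, with 38 dyads, it had 50.4% while control library 23 had 94.6% and the *Tet2*-/- libraries had 86.2%, 95.5% and 95.7%. In the tile from 115482001 both controls were low, at 84.6% and 84.3%, against 94.3%, 97.9% and 94.1% in *Tet2*-/- (edgeR adjusted p = 0.0824). That tile had the lowest adjusted p of the 127 tested tiles inside sirtuin genes, and there the groups separated without the help of library 24.

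The other bodies overlapped between the groups. *Sirt5* had the highest level, at 83.7% and 80.5% in *Tet2*+/+ and 84.1%, 89.4% and 83.6% in *Tet2*-/- (edgeR adjusted p = 0.264). *Sirt6* had 61.5% and 54.2% against 62.9%, 66.6% and 58.4% (adjusted p = 0.476 in edgeR), and *Sirt7* 53.2% and 51% against 52.1%, 54.4% and 59.4% (edgeR adjusted p = 0.636). In the order of body levels the range of *Sirt2* was above that of *Sirt4*, the next lower gene, and all other neighbours overlapped.

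**Figure D3:**
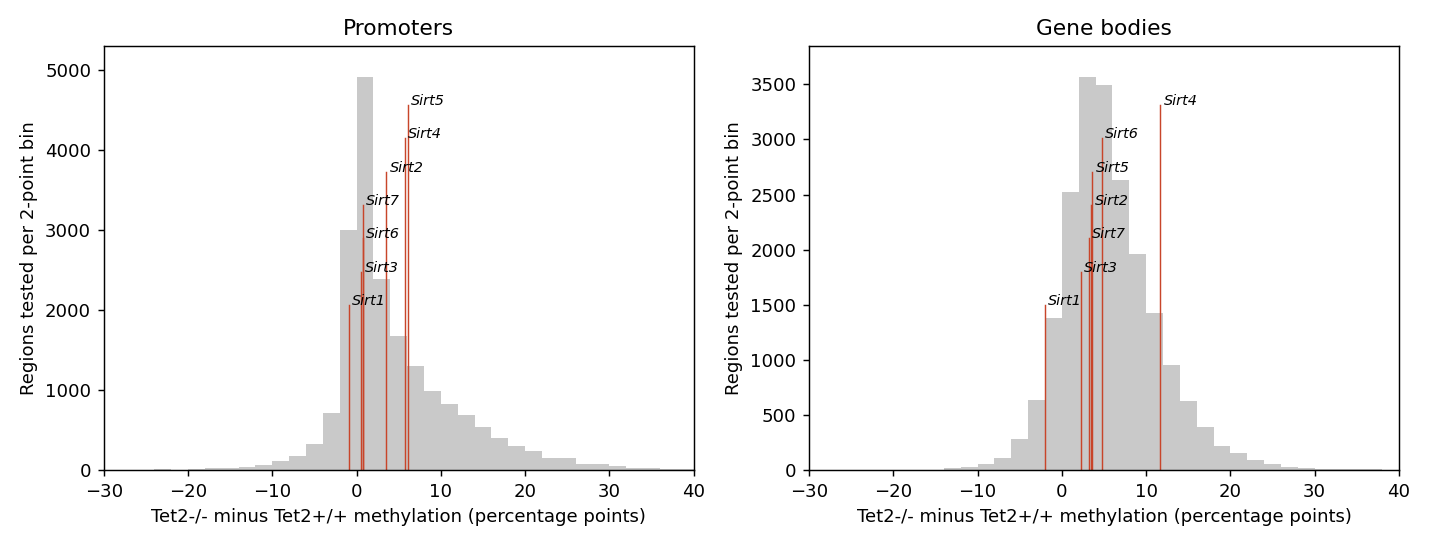
Difference of the group means (*Tet2*-/- minus *Tet2*+/+, percentage points) of the 7 sirtuins as red lines over the distribution of all 19455 promoters and 20715 gene bodies tested, in grey with 2-point bins; the heights of the red lines carry no value. Sirtuin promoters span -0.904 to 6.05 points and bodies -2.03 to 11.7 points, and the medians over all genes are 2.22 and 4.95 points.

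*Sirt1* was the only member with lower means in *Tet2*-/- in all 3 kinds of region, by amounts that did not pass the test in any of them and that, at the promoter, turned to 1.07 points higher without library 23. At its RefSeq start and body the coverage also differed between libraries. Around its RefSeq start it had 14.3% and 12.3% in *Tet2*+/+ and 7%, 7.23% and 11.2% in *Tet2*-/-, all lower (edgeR adjusted p = 0.323, exact permutation p = 0.2). The number of calls there ranged from 377 in library 23 to 1273 in library 7, and the calls within 1 kb of this start made up 14.5% and 16.7% of the body calls in *Tet2*+/+ but 21.9%, 30.2% and 18.5% in *Tet2*-/-. When each dyad had the same weight, the levels were 5.25% and 6.19% in *Tet2*+/+ and 3.86%, 5.23% and 5.97% in *Tet2*-/-, and the groups overlapped.

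The body of *Sirt1* showed the same. Its weighted level was 69.0% and 65.2% in *Tet2*+/+ and 65.3%, 63.4% and 66.4% in *Tet2*-/-, lower by 2.03 points (edgeR adjusted p = 0.719). The difference was -0.122 points without library 23, -3.94 points without library 24 and -0.387 points over dyads with a call in every library. Without the first 1000 bp after the GENCODE start, which keeps the RefSeq start in the body, it was -2.70 points (edgeR adjusted p = 0.654). Outside the 1 kb around the RefSeq start it was 78.3% and 75.8% in *Tet2*+/+ and 81.7%, 87.7% and 79.0% in *Tet2*-/-, higher by 5.74 points with no overlap (exact permutation p = 0.2). The part of this share of calls in the lower level of the whole body was not tested further.

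Split in this way the bodies of all 7 members had a low part within 1 kb of the RefSeq start and a high part in the rest. In the rest the *Tet2*-/- mean was higher in each of the 7, by 2.52 (*Sirt5*) to 12.5 points (*Sirt4*), and the groups did not overlap at *Sirt1*, *Sirt2*, *Sirt3*, *Sirt4* and *Sirt6*. This split was chosen after the values had been seen. Split in the same way, 61.1% of 15169 bodies of genes with a RefSeq start had all *Tet2*-/- libraries above both controls and 0.297% had all below, so that 5 and 0 of 7 are near the background. The mean was higher in *Tet2*-/- in 95.6% of these bodies, and the median difference was 6.20 points, against 5.10 over the sirtuins. *Sirt3* kept the lowest level there, 60.9% in both controls against 64.3%, 67.5% and 66.1% in *Tet2*-/-. Exons and introns were taken only from 1000 bp downstream of the RefSeq start, which leaves out the upstream part of *Sirt1*. There the exons of *Sirt6* had 86.5% and 88.7% in *Tet2*+/+ and 91.9%, 98.0% and 93.9% in *Tet2*-/-, on 52 dyads. *Sirt4* introns had 85.9% and 76.1% against 91.4%, 95.2% and 90.5%. Of the 14 exon and intron parts of the family, 5 had all *Tet2*-/- libraries above both controls, 0 had all below, and 9 overlapped, *Sirt4* exons and *Sirt6* introns among them. Over all genes 54.8% of 27674 such parts had all above and 0.636% all below. The 14 parts, an exon and an intron part of each gene, are too few to set the family apart from this background.

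**Figure D4:**
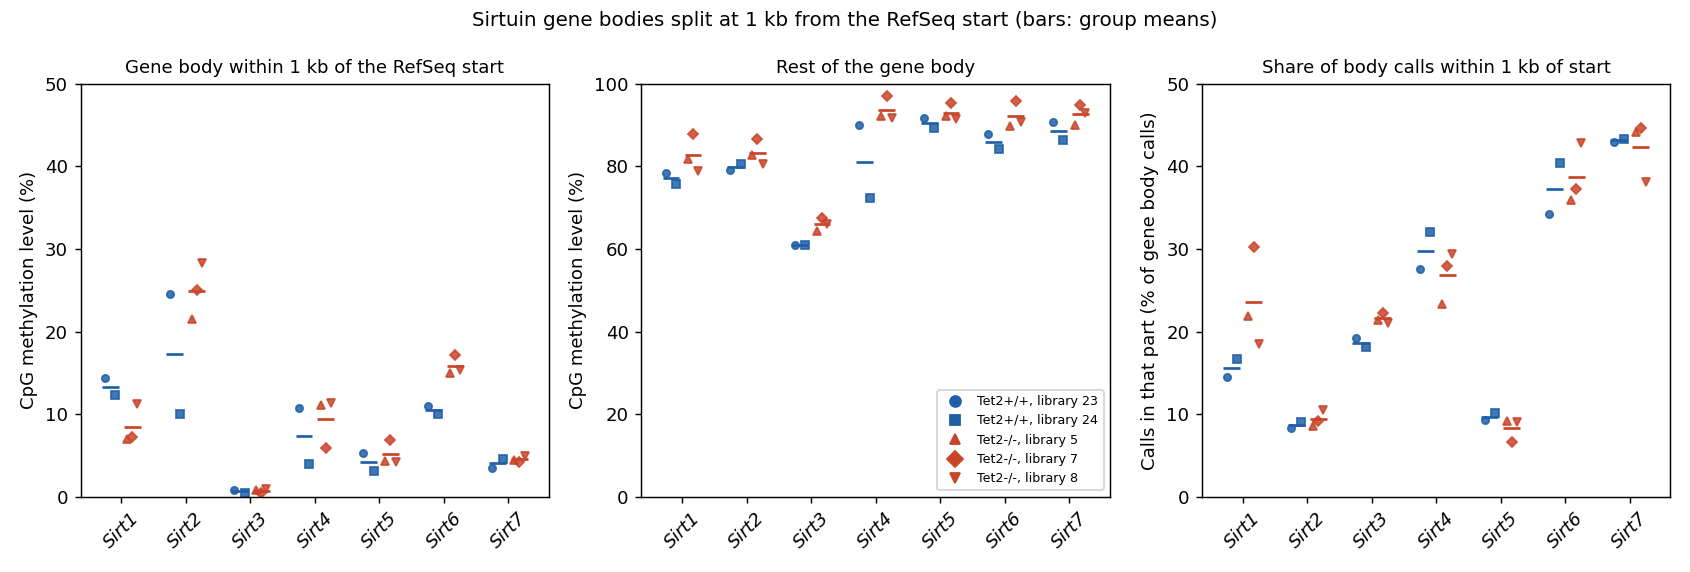
Sirtuin gene bodies split at 1 kb from the RefSeq start: methylation level (%) within that distance, in the rest of the body, and the share of body calls (%) that fell within it; points are libraries and bars are group means. Outside the start the *Tet2*-/- means are higher in all 7 genes, and at *Sirt1* the share of calls near the start is 14.5% and 16.7% in *Tet2*+/+ and 18.5% to 30.2% in *Tet2*-/-.

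To see what lies around the family, 1 kb tiles within 10 kb of each gene were taken from a fit over 1047054 tiles, of which 2.29% passed and 2.28% passed with a higher level in *Tet2*-/-. Of 247 tested tiles near sirtuins 4 passed, all higher in *Tet2*-/-, and 0 of the 127 tiles inside the genes, where 41 had all *Tet2*-/- libraries above both controls and 4 below. Over the genome these shares were 32.9% and 2.06%. The called tiles lay in neighbouring genes. Beside *Sirt2*, a tile in *Ccer2* had 66.1% and 66.7% in *Tet2*+/+ and 94.0%, 95.6% and 89.7% in *Tet2*-/- (edgeR adjusted p = 0.00881), and a tile in *Rinl* 37.5% and 27.9% against 62.2%, 77.7% and 75.3% (edgeR adjusted p = 0.0209). Downstream of *Sirt4*, a tile in *Pla2g1b* had 39.1% and 34.1% against 71.6%, 74.9% and 71.6% (edgeR adjusted p = 0.0242). Downstream of *Sirt5*, a tile in *Nol7* had 28.1% and 14.7% against 43.5%, 82.9% and 59.6% (edgeR adjusted p = 0.0179). In each of these 4 tiles the *Tet2*-/- libraries all lay above both controls, on 47 or more calls in every library.

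**Figure D5:**
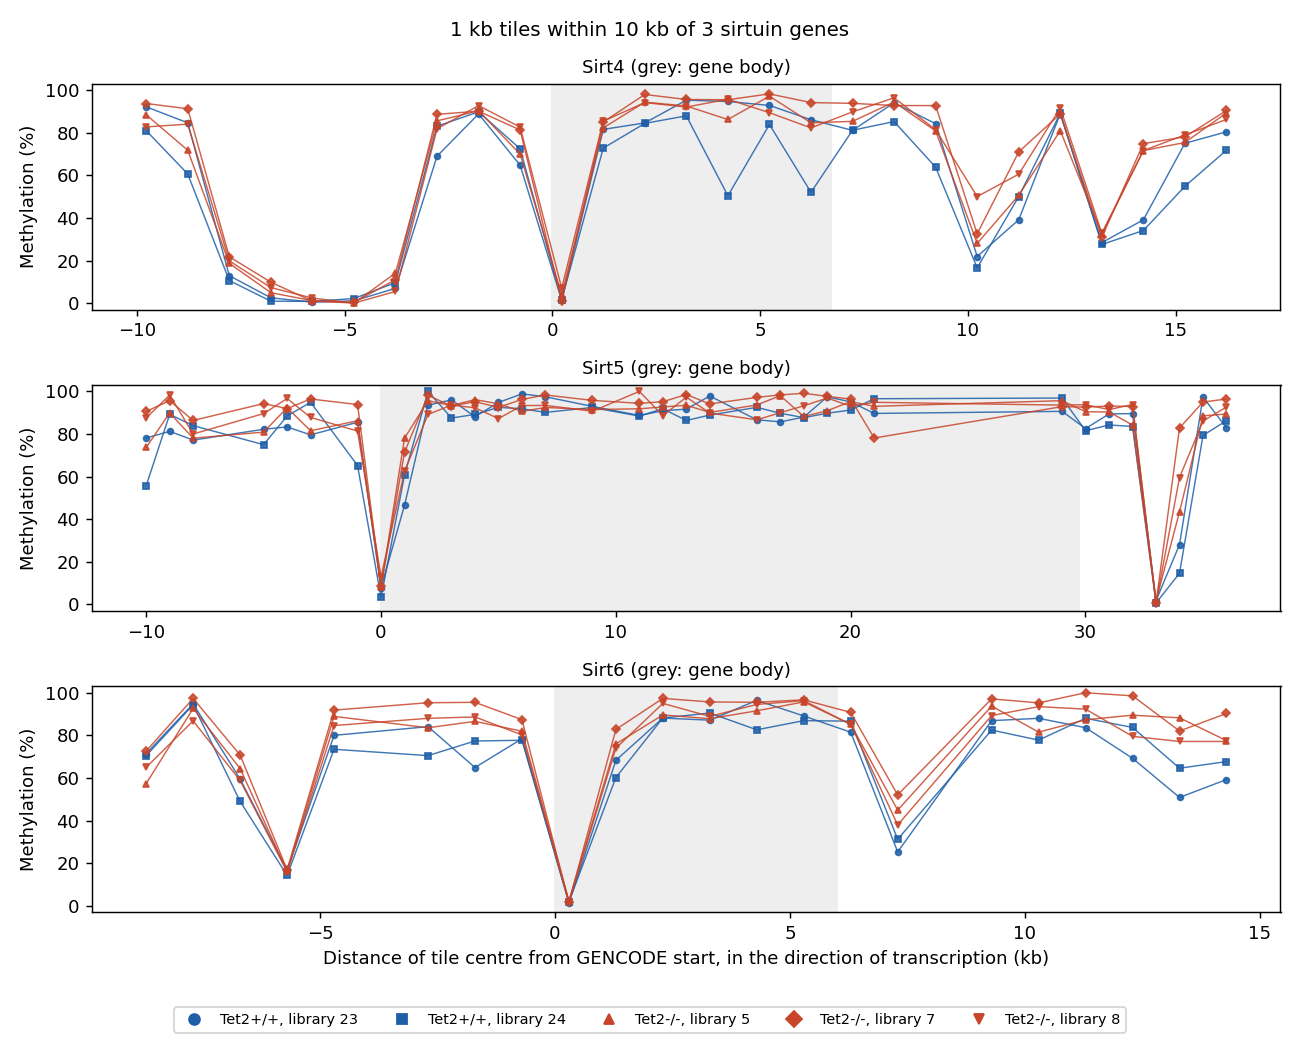
Methylation level (%) of each library in 1 kb tiles within 10 kb of *Sirt4*, *Sirt5* and *Sirt6*, against the distance of the tile centre from the GENCODE start in kb along the direction of transcription; grey marks the gene body. In the tile at the start levels are 1.33% to 2.34% at *Sirt6* and 3.29% to 13% at *Sirt5*, library 24 drops to 50.4% within *Sirt4*, and downstream of *Sirt4* a tile of *Pla2g1b* has 39.1% and 34.1% in *Tet2*+/+ against 71.6% to 74.9% in *Tet2*-/-.

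Other genes of the pathway were counted in lists taken from general knowledge. Of the 11 zinc-dependent deacetylases, the enzymes that remove acetyl groups without NAD+, none passed at the promoter or the body, with median differences of 1.60 and 3.56 points, where over all genes 1.07% of promoters and 15.5% of bodies passed and the medians were 2.22 and 4.95 points. Of 17 sirtuin substrates and regulators none passed either, with medians of 0.983 and 3.30 points. Of 27 genes of NAD+ synthesis and use no promoter passed, with a median of 2.94 points. The lowest edgeR adjusted p in these lists were 0.329 and 0.188 for the deacetylases, 0.317 and 0.0984 for the substrates and 0.0757 for the NAD+ promoters, and such p do not show that the groups were alike.

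In that last list 6 of 27 bodies passed, all higher in *Tet2*-/-, beside 15.5% of all bodies, and the median difference of 4.62 points was near the 4.95 of all bodies. *Nmrk2*, a nicotinamide riboside kinase, had 58.5% and 55.7% in *Tet2*+/+ and 71.9%, 82.6% and 73.7% in *Tet2*-/- (edgeR adjusted p = 0.00612). *Nnmt*, which methylates nicotinamide, had 55.8% and 43.8% against 66.4%, 69.9% and 60.5% (edgeR adjusted p = 0.0179). *Nmnat2*, an NAD+ synthase of the last common step, had 68.1% and 58.8% against 74.1%, 79.2% and 72.2% (edgeR adjusted p = 0.0352). The other genes that passed were *Slc12a8*, *Cd38* and *Nnt*. Without *Tet2*+/+ library 24 the calls in this list were lost, as were most of those over all bodies.

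Genes with the most similar levels were sought over 10 values, the promoter and body level in each of 5 libraries, among 19203 genes. The nearest were *Luc7l3* to *Sirt1*, *Pold1* to *Sirt2*, *Slc16a13* to *Sirt3*, *Ppara* to *Sirt4*, *Tjap1* to *Sirt5*, *Epha5* to *Sirt6* and *Tma16* to *Sirt7*, at a mean absolute difference of 0.41 to 2.20 points. *Sirt3* had the most genes within 3 points, 506. Those of *Sirt5* and *Sirt6*, partly methylated at the promoter, were rare, with 6 and 13 genes.

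The RefSeq promoters (250 bases before to 50 after a start) were searched on both strands for 4 motifs, none of which contains another. The E-box CACGTG was found at *Sirt1* and in 7.15% of 32851 promoters. CCAAT was found at *Sirt2*, *Sirt3* and *Sirt5* and in 37.4%. The CRE sequence TGACGTCA (1.79%) and TATAAA (13.6%) were found at no sirtuin promoter. A match describes the letters only.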

How the data were processed

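Sorted blast DNA of 5 libraries had been made into bisulfite libraries by the authors with the Pico Methyl-Seq kit. Per the labels and the study's methods, reads were trimmed with Trim Galore 0.4.3, checked with FastQC 0.11.7 and aligned to GRCm38 (mm10) with Bismark 0.19.1 and Bowtie 2 in non-directional mode, and duplicates were removed. As deposited by the authors, each CpG cytosine has raw counts of reads that call it methylated or unmethylated. The tables list 43816016 cytosines, and all 7022812 dyads on the 6 chromosomes used for sequence matched CG in the reference.

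Calls of both strands were summed over dyads of the autosomes and X chromosome and then over regions, which needed at least 20 calls in every library. Uneven amplification or coverage within a region shifts its weighted level. edgeR 4.0.16 (R 4.3.3) was fitted over all regions of a kind, with methylated and unmethylated counts as columns, a coefficient per library and a coefficient for the group difference. The quasi-likelihood test was adjusted by Benjamini-Hochberg over all of them at 0.05. Exact permutation tests were two-sided over 10 splits. Limma 3.58.1 was an alternative, on log2 of methylated over unmethylated calls with 2 added to each. Python 3.11.15, numpy 2.4.6, scipy 1.17.1, pandas 2.3.3 and matplotlib 3.10.9 were used otherwise.

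The members and lists were chosen with earlier results of these data known. By rule the text names the 7 sirtuins, *Tet2*, up to 3 genes per list, region and direction with the largest difference past the threshold, the gene nearest in level to each sirtuin, and genes overlapping a sirtuin promoter. Other genes are named for their place beside a sirtuin or to complete a count of 6, after their values were seen. The RefSeq starts, the split bodies, their exons and introns and the 1 kb tiles were added after seeing the data. *Nnt* has 2 gene records, and the longer was used. The labels name no batch. Separate mice are stated in the methods of the study.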

Additional observations from a re-analysis of the deposited data

How the results depend on the processing

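At the promoters the count of sirtuins past the threshold was 0 in all alternatives run, and so was that of the windows. Omitting any single library gave a gene body count between 0 and 1. The gene body count was 1, *Sirt4*, without the first 1000 bp, and the count of 1 kb tiles near sirtuins was 4. In limma the median log2 difference over all regions was 0.38 for promoters and 0.37 for bodies. After subtraction of each library's median it was -0.07 and -0.05. Relative to that shift the log2 difference turned negative for the promoters of *Sirt3* (-0.23), *Sirt6* (-0.41) and *Sirt7* (-0.11). It also did for the bodies of *Sirt2* (-0.13), *Sirt3* (-0.29), *Sirt5* (-0.013), *Sirt6* (-0.13) and *Sirt7* (-0.23). *Sirt4* kept a higher value in *Tet2*-/- in both. With promoters of 2000 bp on each side, *Sirt2* (-1.46 points) and *Sirt3* (-1.05 points) changed sign. The body of *Sirt1* did with equal weights (0.292 points). Signs also changed when single libraries were left out, with ranges of -2.88 to 1.07 points (*Sirt1* promoter), -1.90 to 13.99 (*Sirt5*), -0.729 to 2.71 (*Sirt6*), -1.38 to 2.91 (*Sirt7*) and -8.03 to 31.97 (*Sirt7* window). The *Sirt2* promoter kept its sign, at 0.32 to 6.69 points. Without *Tet2*+/+ library 23 the promoter difference was 1.07 points at *Sirt1* and -1.38 points at *Sirt7*, and it was -8.03 points in the *Sirt7* window of bases -750 to -501. Without *Tet2*+/+ library 24 it was -1.90 points at *Sirt5* and -0.128 points at *Sirt6*, and without *Tet2*-/- library 5 it was -0.729 points at *Sirt6*. The body count for NAD+ genes was 6, against 1 in limma and 0 after subtraction of the library medians, and between 0 and 9 with 1 library left out. For sirtuin substrates and regulators it was between 0 and 2. Over all bodies the counts moved too, from 3202 higher and 14 lower to 482 and 3 in limma and 5 and 1 after that subtraction. The cause was not tested. With 1 control left, its spread is assumed to be that of the other libraries. No paired analysis was possible because the groups share no replicate number. Depth limits the windows: the printed *Sirt5* flank window of 5 dyads had 13 calls in its shallowest library. Over all genes the count of promoters past the threshold was 206 higher and 3 lower, against 34 and 6 in limma with medians subtracted and 0 and 0 without library 24. For bodies these were 3202 and 14, 5 and 1, and 85 and 2.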
